A study of Homo sapiens with 9 samples.

Results

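The collagen, laminin, thrombospondin and integrin genes of PANC-1 cells were followed through knockdown of 2 chromatin enzymes. PANC-1 is an established human cell line that was grown out of a carcinoma of the pancreas. The members are the protein-coding genes whose symbols mark them as collagen chains, laminin chains, thrombospondins or integrin alpha or beta chains, taken by name from 36753 gene identifiers and not by their values. There are 85 of them, namely 43 collagen, 12 laminin, 4 thrombospondin, 18 integrin alpha and 8 integrin beta genes. RNA sequencing was done on 9 libraries, 3 each of cells given small interfering RNA against SIRT6 (siSIRT6), cells given small interfering RNA against KDM5C (siKDM5C) and control cells, all 48 hours after transfection. The control libraries carry siNC in their column headers. How many interfering RNAs were used per target, and their sequences, is not stated, so effects of an interfering RNA on other targets cannot be told apart from effects of losing the enzyme. Nothing in the labels says that replicates were separate cultures, so p-values measure the spread between libraries, which may be technical.

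SIRT6 is a sirtuin that removes acyl groups from histones, and KDM5C is a histone lysine demethylase. Collagens, laminins and thrombospondins are secreted matrix proteins. Collagen chains fold in threes into fibrils, networks or membrane-bound rods. Laminins are trimers of an alpha, a beta and a gamma chain that form the sheet of the basement membrane. Integrins are the cell's main receptors for these proteins, each a pair of an alpha and a beta chain that links the matrix to the actin skeleton. Pancreatic carcinomas are known for dense collagen, most of which is laid down by fibroblasts and stellate cells and not by the tumour cells.

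Values are the authors' FPKM, which are fragment counts divided by gene length and by library depth, and the recovered reads in genes ranged from 18200081 to 26908445 per library. SIRT6 averaged 0.597 ± 0.172 FPKM in siSIRT6 libraries and 6.18 ± 1 FPKM in control libraries (SD, n = 3 each), which is 9.66% of control. KDM5C averaged 3.61 ± 0.29 FPKM in siKDM5C libraries and 18.4 ± 0.389 FPKM in control libraries, which is 19.6% of control. The epithelial markers EPCAM, KRT7, KRT8, KRT18, KRT19 and CDH1 summed to 1400 to 1510 FPKM in siSIRT6 libraries, 696 to 856 FPKM in siKDM5C libraries and 1090 to 1140 FPKM in control libraries, and nearly all of that was keratin. KRT8 averaged 556, 259 and 495 FPKM in siSIRT6, siKDM5C and control libraries, KRT18 averaged 589, 339 and 459 FPKM, and KRT19 averaged 302, 152 and 148 FPKM. EPCAM, a defining surface marker of epithelia, averaged 1.56 FPKM in siSIRT6 libraries, 2.93 FPKM in siKDM5C libraries and 0.988 FPKM in control libraries, and CDH1, which encodes E-cadherin, averaged 0.52, 0.14 and 0.591 FPKM and was not tested. The 7 fibroblast and stellate cell markers summed to 0.458 to 0.703 FPKM in siSIRT6 libraries, 0.194 to 0.259 FPKM in siKDM5C libraries and 0.222 to 0.352 FPKM in control libraries, and none averaged 1 FPKM. None of the 4 endothelial markers did either. Leukocyte markers summed to 35.8 to 38.8 FPKM in siSIRT6 libraries, 72.4 to 93.2 FPKM in siKDM5C libraries and 43.4 to 57.5 FPKM in control libraries, which was almost all CD68, a lysosomal gene. CD14 averaged 1.7, 1.95 and 2.96 FPKM in siSIRT6, siKDM5C and control libraries and was lower than control in both knockdowns. PTPRC and LYZ were under 0.1 FPKM. The part of the keratin, CD68 and CD14 differences in the results below was not tested. These are bulk libraries, in which fewer cells making a transcript and less transcript per cell cannot be told apart.

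Integrin and laminin chains made up most of the abundant members. By FPKM, 17 of the 85 members averaged at least 20 FPKM in some group. They included the integrin chains ITGA2, ITGA3, ITGA5, ITGA6, ITGAV, ITGB1, ITGB4 and ITGB5, the laminins LAMA5, LAMB1, LAMB2 and LAMC1, and the collagens COL1A1, COL5A1, COL5A2 and COL18A1. At the other end, 28 members were under 0.1 FPKM in every group. A gene was tested where at least 3 libraries reached 1 FPKM, which held for 38 members and left 47 out. Of the 38, 10 had at least 1 library at 1 FPKM in only some of the groups, and such genes reached the test through the groups where they were high. COL11A1 reached 1 FPKM in siSIRT6 libraries alone and ITGA10 in siKDM5C libraries alone. COL3A1, COL4A1, COL4A5, COL9A3, ITGB8 and LAMA4 did so in both knockdowns but not in control libraries. COL16A1 did so in siSIRT6 and control libraries, and COL27A1 in siKDM5C and control libraries.

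More of the tested members were higher than lower after each knockdown. After siSIRT6, 23 of 38 were higher than in control libraries and 3 were lower (limma on log2(FPKM + 1), Benjamini-Hochberg adjusted p under 0.05 over all 16135 tested genes). That is 60.5% higher and 7.89% lower, where 23.9% of all tested genes were higher and 26.9% were lower. The median difference was 0.42 over the tested members and -0.05 over all tested genes on the log2(FPKM + 1) scale, which understates the change of low genes. After siKDM5C, 18 of 38 were higher and 6 were lower, or 47.4% and 15.8%, against 25.6% and 25.9% of all tested genes, with medians of 0.13 and -0.02. Between the knockdowns, 21 were higher in siSIRT6 than in siKDM5C libraries and 7 were lower, or 55.3% and 18.4%, against 18.6% and 21.3% of all tested genes. COL11A1, COL3A1, COL4A1, COL4A5, COL9A3, ITGA10, ITGB8 and LAMA4 had no control library at 1 FPKM and reached the test only through knockdown libraries. A call below control was hardly possible for them. COL27A1 had no siSIRT6 library and COL16A1 no siKDM5C library at 1 FPKM, so a higher call in that group was hardly possible. COL11A1 and ITGA10 each passed through 1 knockdown alone, so the filter also bears on their calls between the knockdowns. Counts and shares that include any of these genes, and their own calls, are descriptive. All tested genes passed the same filter. Among the 20 members that passed a stricter minimum of 5 FPKM, 13 were higher and 1 was lower after siSIRT6, and 9 were higher and 4 lower after siKDM5C. At that minimum 27.5% of all tested genes were higher and 29.4% lower after siSIRT6, and 28.9% and 28.5% after siKDM5C. Between the knockdowns 12 of the 20 were higher and 4 lower in siSIRT6 than in siKDM5C libraries, against 21.9% and 23.9% of all genes tested at that minimum. The stricter minimum can also be met through the knockdowns alone, as by THBS1, which was under 5 FPKM in every control library. Leaving out siKDM5C replicate 2 raised the lower members after siSIRT6 to 5, and leaving out siKDM5C replicate 1 or 3 cut the lower members in siSIRT6 against siKDM5C libraries to 4. With any siKDM5C library left out, ITGA10 no longer met the testing minimum.

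**Figure D1:**
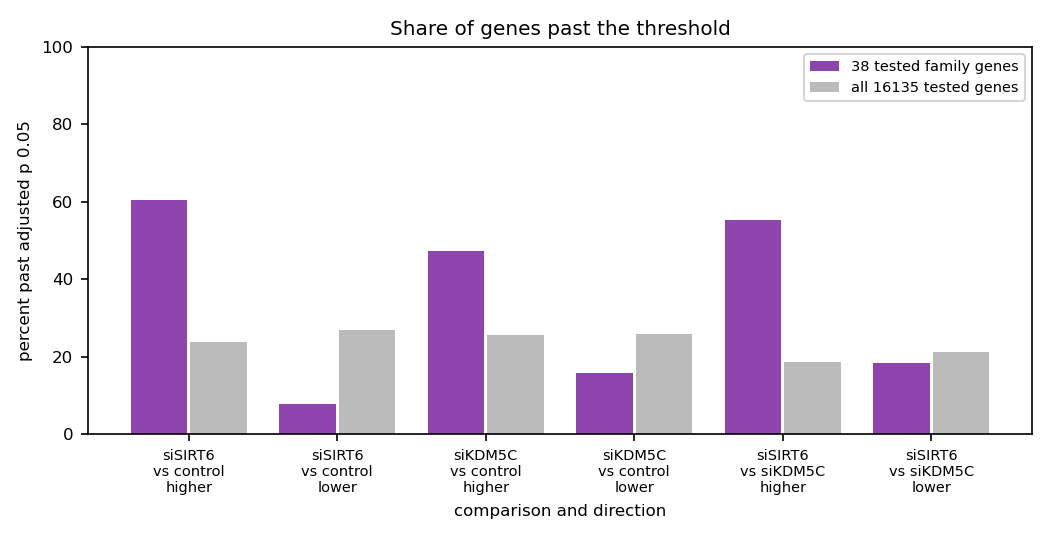
Percent of genes past an adjusted p of 0.05 (vertical axis) in each comparison and direction (horizontal axis), for the 38 tested collagen, laminin, thrombospondin and integrin genes (purple) and for all 16135 tested genes (grey). The members' bars for higher genes stand at 60.5%, 47.4% and 55.3%, above the grey bars at 23.9%, 25.6% and 18.6%. Members that reached the test through only some of the groups are included.

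The comparisons of the knockdowns with control share the control libraries, so a call in both is a description and not independent support. Members called higher in each were the collagens COL3A1, COL4A1, COL4A2, COL5A1, COL5A2, COL7A1, COL9A3 and COL13A1, the laminins LAMA4 and LAMC1, the thrombospondin THBS1 and the integrins ITGA3, ITGB3 and ITGB8. No tested member was called lower in both. The share of all tested genes called in the same direction in both knockdowns was not counted, so these lists have no background to be read against. ITGB4 and LAMB3 passed the threshold in opposite directions in the knockdowns. ITGA5, ITGB2, ITGB5 and COL6A2 passed it in neither.

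**Figure D2:**
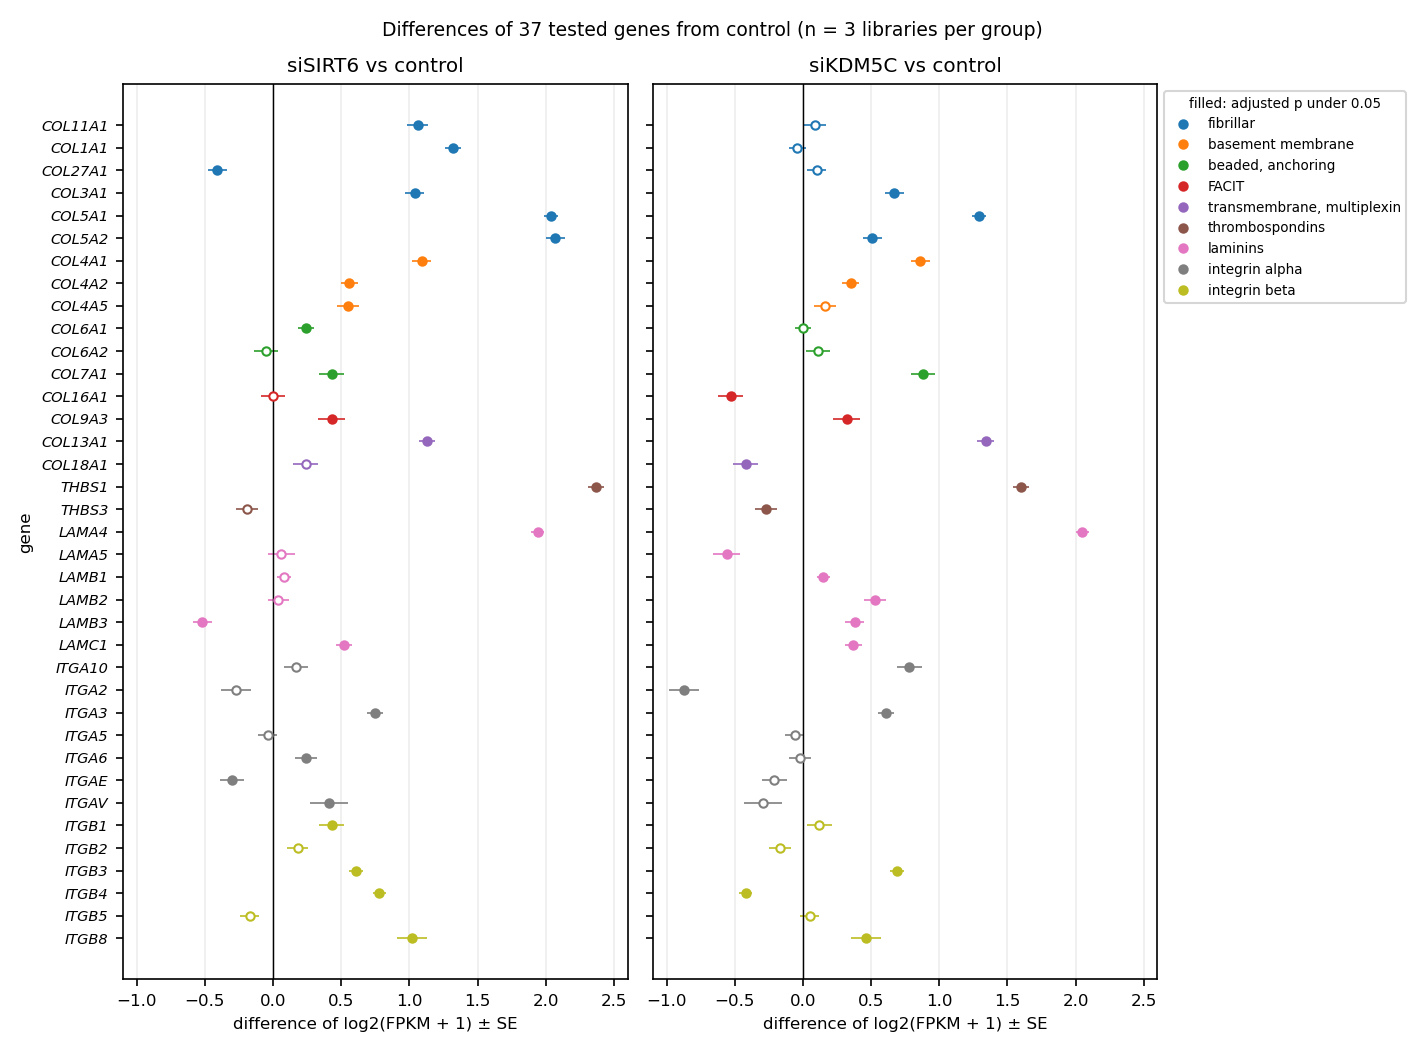
Difference from control on the log2(FPKM + 1) scale with its standard error (horizontal axis) for 37 of the tested genes (vertical axis, grouped by role and colour), after siSIRT6 (left) and siKDM5C (right), n = 3 libraries per group. Filled points passed an adjusted p of 0.05. THBS1 stands furthest right after siSIRT6 at 2.37 and LAMA4 after siKDM5C at 2.05.

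Among the fibrillar collagens, which make the striated fibres of connective tissue, 5 of 6 tested genes were higher after siSIRT6 and COL27A1 was lower, or 83.3% and 16.7% against 23.9% and 26.9% of all tested genes. COL3A1, COL11A1 and COL27A1 reached the test only through groups where they were high, so these shares are descriptive. COL5A2 had 104, 102 and 105 FPKM in siSIRT6 libraries, 32.4, 35.5 and 35.7 FPKM in siKDM5C libraries, and 26.1, 24.5 and 21.4 FPKM in control libraries. The groups did not overlap. COL5A2 is a chain of type V collagen, which sets the diameter of fibrils, and it was 4.31-fold higher after siSIRT6 (log2 difference 2.07 ± 0.07 SE, adjusted p = 4.42e-07) and 1.44-fold higher after siKDM5C (0.51 ± 0.07, adjusted p = 0.000609). Its partner chain COL5A1 had 24.1, 24.1 and 25.3 FPKM in siSIRT6 libraries, 13.5, 14.0 and 14.9 FPKM in siKDM5C libraries, and 5.25, 5.39 and 4.96 FPKM in control libraries. COL5A1 was 4.71-fold higher after siSIRT6 (2.04 ± 0.05, adjusted p = 2.04e-07) and 2.72-fold higher after siKDM5C (1.29 ± 0.05, adjusted p = 7.76e-07). The type V chains did not move in step in both knockdowns. COL5A2 per COL5A1 was 4.23 ± 0.0758 in siSIRT6 libraries, 2.44 ± 0.0867 in siKDM5C libraries and 4.61 ± 0.333 in control libraries (ratio of FPKM, SD, n = 3 each).

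COL1A1, a chain of type I collagen, had 42.5, 40.7 and 41.0 FPKM in siSIRT6 libraries, 15.1, 14.9 and 16.9 FPKM in siKDM5C libraries, and 16.0, 15.5 and 16.6 FPKM in control libraries. It stood alone in the siSIRT6 libraries, and the siKDM5C and control ranges overlapped. COL1A1 was 2.58-fold higher after siSIRT6 than in control libraries (1.32 ± 0.06, adjusted p = 1.07e-06) and 2.65-fold higher than after siKDM5C (1.35 ± 0.06, adjusted p = 2.17e-06). Its difference between siKDM5C and control libraries was -0.04 ± 0.06 (adjusted p = 0.64), and with the trend on GC content and length removed it was -0.13 (adjusted p = 0.0102). COL1A2, the other chain of type I collagen, had 6 reads in the siSIRT6 libraries together, 3 in the siKDM5C libraries and 1 in the control libraries, so nearly all of the type I collagen transcript came from the alpha-1 gene.

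COL11A1, a minor fibrillar chain, had 1.59, 1.67 and 1.46 FPKM in siSIRT6 libraries, 0.305, 0.381 and 0.269 FPKM in siKDM5C libraries, and 0.29, 0.283 and 0.141 FPKM in control libraries. It was 6.61-fold higher after siSIRT6 than in control libraries (1.06 ± 0.08, adjusted p = 2.2e-05) and 4.94-fold higher than after siKDM5C (0.96 ± 0.08, adjusted p = 6.47e-05). COL11A1 reached the test through siSIRT6 libraries alone, so both calls are descriptive. COL3A1, which co-assembles with type I collagen, had 1.9, 1.69 and 1.58 FPKM in siSIRT6 libraries, 1.16, 1.01 and 1.13 FPKM in siKDM5C libraries, and 0.293, 0.326 and 0.341 FPKM in control libraries. The 3 groups of COL3A1 were fully separate, with ratios to control of 5.39 and 3.44. COL3A1 lies end to end with COL5A2 on chromosome 2, with 19149 bases and no coding gene between them, and both rose in both knockdowns. COL27A1, a fibrillar chain known from cartilage, went the other way after siSIRT6, with 0.798, 0.876 and 0.79 FPKM in siSIRT6 libraries, 1.75, 1.4 and 1.6 FPKM in siKDM5C libraries, and 1.35, 1.41 and 1.48 FPKM in control libraries. Its difference was -0.41 ± 0.07 from control (adjusted p = 0.00165) and -0.5 ± 0.07 from siKDM5C (adjusted p = 0.000819). COL27A1 reached the test through siKDM5C and control libraries alone, so these lower calls are descriptive. Over all 11 fibrillar genes the summed level was 171 to 175 FPKM in siSIRT6 libraries, 64.4 to 70.8 FPKM in siKDM5C libraries and 45 to 49.3 FPKM in control libraries, most of it COL5A2 and COL1A1.

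**Figure D3:**
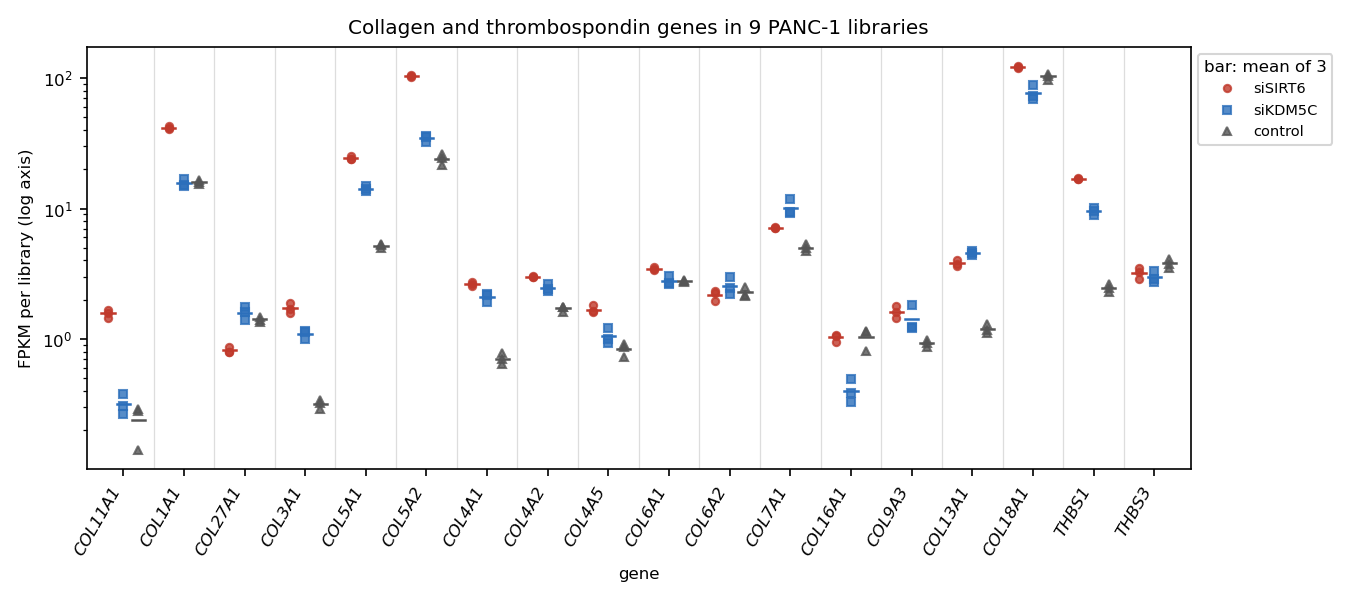
FPKM of each library on a log axis (vertical) for the 16 tested collagen genes and 2 tested thrombospondin genes (horizontal), with siSIRT6 as red circles, siKDM5C as blue squares and control as grey triangles, and a bar at the mean of 3 libraries. COL5A2 sits at 102 to 105 FPKM in siSIRT6 libraries and at 21.4 to 26.1 FPKM in control libraries, and COL1A1 is high in siSIRT6 libraries alone.

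Type IV collagen forms the network of basement membranes, and its genes are arranged head to head. COL4A1 and COL4A2 start 126 bases apart on chromosome 13 in RefSeq and run in opposite directions. The stretch between their start sites, which both genes share, is shown because both rose together in both knockdowns. It is chr13:110307158-110307283 (GRCh38.p14, plus strand, the direction of COL4A2), with a CCAAT box and a GC box (GGGCGG) in capitals.
COL4A1/COL4A2 shared start region: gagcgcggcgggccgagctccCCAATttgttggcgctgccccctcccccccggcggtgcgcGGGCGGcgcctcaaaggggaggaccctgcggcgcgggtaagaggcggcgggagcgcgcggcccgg
COL4A1 had 2.55, 2.64 and 2.73 FPKM in siSIRT6 libraries, 1.91, 2.19 and 2.22 FPKM in siKDM5C libraries, and 0.704, 0.78 and 0.639 FPKM in control libraries. COL4A2 had 3.0, 2.99 and 3.03 FPKM in siSIRT6 libraries, 2.33, 2.41 and 2.65 FPKM in siKDM5C libraries, and 1.76, 1.77 and 1.62 FPKM in control libraries. Neither gene's knockdown range touched its control range. The pair did not rise by the same factor, since COL4A1 was 3.73-fold and 2.98-fold higher than control after siSIRT6 and siKDM5C, while COL4A2 was 1.75-fold and 1.44-fold higher. COL4A2 per COL4A1 was 1.14 ± 0.0352 in siSIRT6 libraries, 1.17 ± 0.0615 in siKDM5C libraries and 2.43 ± 0.141 in control libraries (ratio of FPKM, SD, n = 3 each). In GENCODE release 29 the annotated spans of COL4A1 and COL4A2 overlap by 1422 bases on opposite strands, and it is not known whether the counting used strand, so reads from the overlap cannot be told apart between the genes. The antisense gene COL4A2-AS1, which overlaps COL4A2, averaged 7.15 FPKM in siSIRT6 libraries, 5.52 FPKM in siKDM5C libraries and 2.85 FPKM in control libraries. The higher level of COL4A1 and of COL4A2 after siSIRT6 than after siKDM5C, at 0.23 ± 0.07 and 0.21 ± 0.06, lost its call when any siSIRT6 library or siKDM5C replicate 1 was left out (adjusted p from 0.0512 to 0.0868 for COL4A1 and from 0.0555 to 0.0624 for COL4A2). COL4A5, a chain of the same family on chromosome X, averaged 1.68 ± 0.111 FPKM in siSIRT6 libraries, 1.05 ± 0.153 FPKM in siKDM5C libraries and 0.838 ± 0.101 FPKM in control libraries, and was called after siSIRT6 (0.55 ± 0.08, adjusted p = 0.000681) and between the knockdowns (0.39 ± 0.08, adjusted p = 0.00563).

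The remaining collagens did not share a pattern. COL13A1, a transmembrane collagen of adhesion sites, had 4.05, 3.75 and 3.66 FPKM in siSIRT6 libraries, 4.54, 4.44 and 4.72 FPKM in siKDM5C libraries, and 1.18, 1.31 and 1.12 FPKM in control libraries. It was 3.18-fold higher after siSIRT6 (1.13 ± 0.06, adjusted p = 2.43e-06) and 3.8-fold higher after siKDM5C (1.34 ± 0.06, adjusted p = 9.93e-07). The difference between the knockdowns, -0.21 ± 0.06, lost its call without siSIRT6 replicate 2 or 3 or siKDM5C replicate 1 or 3 (adjusted p from 0.0518 to 0.0836). COL7A1, the collagen of anchoring fibrils, had 7.23, 7.14 and 7.03 FPKM in siSIRT6 libraries, 9.34, 9.19 and 11.9 FPKM in siKDM5C libraries, and 4.7, 5.35 and 5.02 FPKM in control libraries. Here siKDM5C stood above siSIRT6 (-0.44 ± 0.09 for siSIRT6 minus siKDM5C, adjusted p = 0.00496), and both stood above control. COL18A1, a basement membrane collagen that carries endostatin, had the highest FPKM of the collagens in every group. It had 121, 120 and 123 FPKM in siSIRT6 libraries, 68.8, 72.2 and 88.7 FPKM in siKDM5C libraries, and 107, 104 and 97.0 FPKM in control libraries. COL18A1 was lower after siKDM5C (-0.42 ± 0.09, adjusted p = 0.00458). Its difference after siSIRT6, 0.24 ± 0.09, missed the threshold at an adjusted p of 0.0519 and passed it without siKDM5C replicate 1 (0.0355) or 3 (0.00415).

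COL16A1, a collagen that attaches to other fibrils, averaged 1.03 ± 0.067 FPKM in siSIRT6 libraries, 0.403 ± 0.0863 FPKM in siKDM5C libraries and 1.03 ± 0.196 FPKM in control libraries. It was lower after siKDM5C than in control libraries (-0.53 ± 0.09, adjusted p = 0.00165) and its siSIRT6 and control ranges overlapped. COL16A1 reached the test through siSIRT6 and control libraries alone, so the lower call is descriptive. COL9A3, a chain of the fibril-attached type IX collagen, averaged 1.61 ± 0.175 FPKM in siSIRT6 libraries, 1.42 ± 0.344 FPKM in siKDM5C libraries and 0.931 ± 0.0551 FPKM in control libraries. Its call after siKDM5C (0.32 ± 0.1, adjusted p = 0.032) was lost without any control library or without siKDM5C replicate 3 (adjusted p from 0.0587 to 0.0863). COL6A1, a chain of the beaded filaments, averaged 3.46 ± 0.102 FPKM in siSIRT6 libraries, 2.79 ± 0.22 FPKM in siKDM5C libraries and 2.79 ± 0.0503 FPKM in control libraries, and was called after siSIRT6 (0.24 ± 0.06, adjusted p = 0.00874). COL6A2, its neighbour on chromosome 21 and a partner in the same filament, averaged 2.18 ± 0.212 FPKM in siSIRT6 libraries, 2.55 ± 0.386 FPKM in siKDM5C libraries and 2.28 ± 0.201 FPKM in control libraries, with all ranges overlapping.

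THBS1 encodes thrombospondin 1, which binds collagens, integrins and CD47 and activates latent TGF-beta. It had 16.7, 16.9 and 17.1 FPKM in siSIRT6 libraries, 8.97, 9.5 and 10.1 FPKM in siKDM5C libraries, and 2.63, 2.47 and 2.29 FPKM in control libraries. The groups were fully separate and the ratios to control were 6.86 after siSIRT6 (2.37 ± 0.06, adjusted p = 2.04e-07) and 3.87 after siKDM5C (1.6 ± 0.06, adjusted p = 4.86e-07). The siSIRT6 level was 1.77-fold that of siKDM5C (0.77 ± 0.06, adjusted p = 3.1e-05). THBS3, a cartilage and bone thrombospondin, averaged 3.22 ± 0.303 FPKM in siSIRT6 libraries, 3.0 ± 0.301 FPKM in siKDM5C libraries and 3.8 ± 0.294 FPKM in control libraries. It was called lower after siKDM5C (-0.27 ± 0.08, adjusted p = 0.0243), a call lost without control replicate 2 or 3 or siKDM5C replicate 1 or 2 (adjusted p from 0.0574 to 0.0782). THBS2 and THBS4 were not tested, with at most 50 reads in the 3 libraries of any group.

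Genes that overlap THBS1 on the opposite strand moved with it. THBS1-AS1 averaged 21.9 FPKM in siSIRT6 libraries, 11.3 FPKM in siKDM5C libraries and 3.05 FPKM in control libraries. FSIP1, a coding gene that also overlaps THBS1, averaged 6.17 FPKM in siSIRT6 libraries, 3.36 FPKM in siKDM5C libraries and 1.34 FPKM in control libraries. Both were called higher in both knockdowns. The library kit keeps strand, but no source says whether the counting used it, so reads in the overlaps cannot be told apart. Across the members called after siSIRT6, 10 tested antisense RNA genes overlapped 8 of them, and 6 were called in the member's direction, 0 in the opposite one and 4 in neither. After siKDM5C, 11 such genes overlapped 11 members, and 8 were called in the member's direction, 1 in the opposite one, at LAMB1, and 2 in neither. Of all tested genes, 23.9% were higher and 26.9% lower after siSIRT6, and 25.6% and 25.9% after siKDM5C. Coding genes on the opposite strand were not in these counts. Where the member was called, TCFL5 over COL9A3, HASPIN over ITGAE, MTX1 over THBS3 and SLC19A1 over COL18A1 were called in its direction. DLD over LAMB1 was called in the opposite one after siKDM5C, and GALK1 over ITGB4 and ADRM1 over LAMA5 in neither. Reads in these overlaps likewise cannot be told apart.

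**Figure D4:**
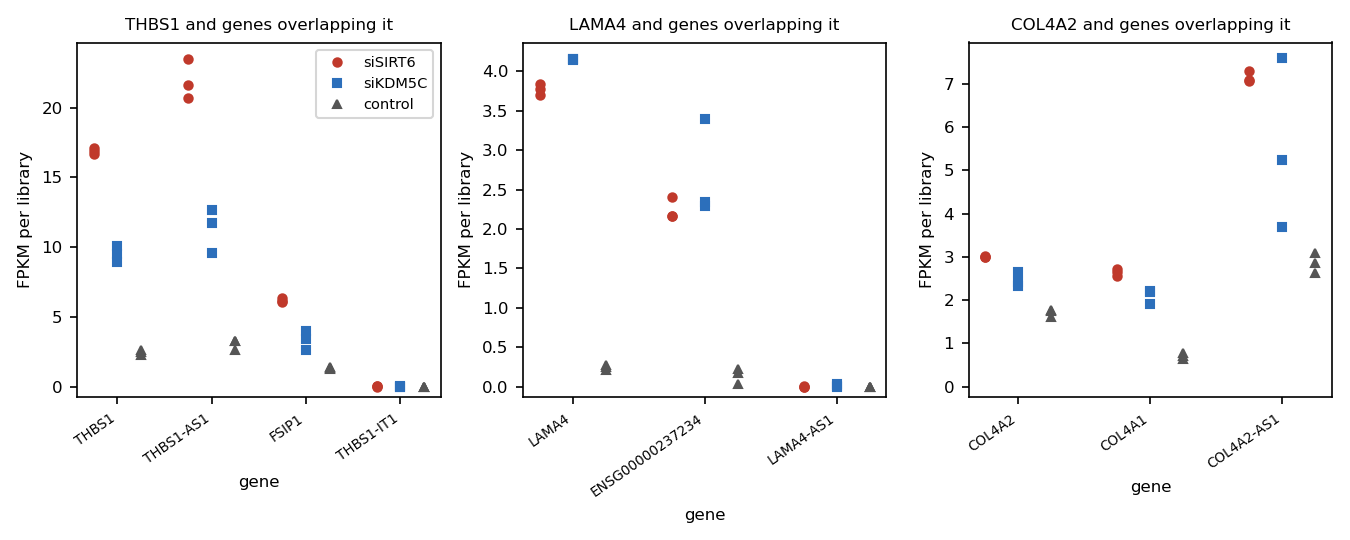
FPKM of each library (vertical axis, linear) for THBS1, LAMA4 and COL4A2 and for genes that overlap them (horizontal axis), with siSIRT6 as red circles, siKDM5C as blue squares and control as grey triangles. THBS1-AS1 and FSIP1 are ordered like THBS1, with means of 21.9, 11.3 and 3.05 FPKM and of 6.17, 3.36 and 1.34 FPKM, while THBS1-IT1 and LAMA4-AS1 lie near 0.

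Laminin alpha chains carry the sites that bind integrins. LAMA4, the alpha chain best known from vessel and muscle basement membranes, had the largest ratio to control among the tested members in both knockdowns. It had 3.7, 3.78 and 3.84 FPKM in siSIRT6 libraries, 4.14, 4.16 and 4.16 FPKM in siKDM5C libraries, and 0.271, 0.254 and 0.215 FPKM in control libraries. Reads assigned to LAMA4 were 2983 in siSIRT6 libraries, 3031 in siKDM5C libraries and 165 in control libraries. Its level was 15.3-fold that of control after siSIRT6 (1.94 ± 0.05, adjusted p = 2.04e-07) and 16.9-fold after siKDM5C (2.05 ± 0.05, adjusted p = 6.34e-08). The knockdowns differed by -0.11 ± 0.05 (adjusted p = 0.114). An antisense gene over LAMA4 with no symbol, ENSG00000237234, averaged 2.24 FPKM in siSIRT6 libraries, 2.68 FPKM in siKDM5C libraries and 0.143 FPKM in control libraries. LAMA5, the main alpha chain by level, had 57.7, 56.2 and 57.2 FPKM in siSIRT6 libraries, 31.3, 36.6 and 42.8 FPKM in siKDM5C libraries, and 57.9, 56.5 and 49.9 FPKM in control libraries. LAMA5 was lower after siKDM5C (-0.56 ± 0.1, adjusted p = 0.00221), and its siSIRT6 and control ranges overlapped. LAMA5 per LAMA4 was 15.1 ± 0.407 in siSIRT6 libraries, 8.88 ± 1.36 in siKDM5C libraries and 223 ± 9.19 in control libraries (ratio of FPKM, SD, n = 3 each).

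Promoter sequences are shown for THBS1, COL5A1 and LAMA4, the 3 members that moved most on the log2 scale when the smaller of their differences in the knockdowns is taken. Each line holds the 250 bases before the RefSeq start site on the gene's own strand, in GRCh38.p14, at chr15:39580829-39581078 (plus strand) for THBS1, chr9:134641553-134641802 (plus) for COL5A1 and chr6:112254568-112254817 (minus) for LAMA4. Capitals mark GC boxes (GGGCGG on either strand) and CCAAT boxes (on either strand).
THBS1: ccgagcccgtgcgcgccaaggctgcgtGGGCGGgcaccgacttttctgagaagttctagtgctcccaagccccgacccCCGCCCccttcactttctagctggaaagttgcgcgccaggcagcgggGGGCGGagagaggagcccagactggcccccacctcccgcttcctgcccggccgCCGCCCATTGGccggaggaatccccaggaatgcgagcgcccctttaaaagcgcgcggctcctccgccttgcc
COL5A1: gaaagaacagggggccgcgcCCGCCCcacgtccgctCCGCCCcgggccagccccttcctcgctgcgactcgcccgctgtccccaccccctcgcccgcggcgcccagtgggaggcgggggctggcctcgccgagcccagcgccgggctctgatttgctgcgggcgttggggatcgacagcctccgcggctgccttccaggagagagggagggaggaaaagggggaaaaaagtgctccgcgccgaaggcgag
LAMA4: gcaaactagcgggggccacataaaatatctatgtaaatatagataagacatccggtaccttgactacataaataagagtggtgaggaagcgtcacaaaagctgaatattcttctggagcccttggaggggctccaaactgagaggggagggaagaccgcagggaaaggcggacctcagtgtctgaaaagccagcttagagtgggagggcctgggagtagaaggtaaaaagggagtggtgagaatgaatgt
THBS1 held 4 GC boxes and a CCAAT box, COL5A1 held 2 GC boxes, and LAMA4 held no match to either motif in this window. Of 61 members with a RefSeq promoter, 34 held a GC box in these 250 bases, 15 a CCAAT box, 7 a TATA box (TATAAA) and 1 an AP-1 motif (TGANTCA), each searched on both strands. The motifs were met in 42.6%, 32%, 10.7% and 6.57% of all 35116 promoters of that length. Among the members called higher in each knockdown, 9 had a promoter in the table, and 7 held a GC box, 4 a CCAAT box, 2 a TATA box and 0 an AP-1 motif. COL4A1 and COL4A2 share a start region, so the CCAAT box and the GC box printed for it count for both genes. A match is a description of the letters and not evidence of binding.

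The laminin beta and gamma chains did not move together. LAMB3, the beta chain of the laminin under stratified and glandular epithelia, had 6.41, 6.01 and 6.05 FPKM in siSIRT6 libraries, 12.3, 11.2 and 13.6 FPKM in siKDM5C libraries, and 9.64, 9.21 and 8.87 FPKM in control libraries. The groups did not overlap, and LAMB3 was lower after siSIRT6 (-0.52 ± 0.07, adjusted p = 0.000438) and higher after siKDM5C (0.38 ± 0.07, adjusted p = 0.00211). LAMA3, an alpha chain that joins LAMB3 in a trimer, was under the testing minimum at 0.508 FPKM in siSIRT6 libraries, 0.309 FPKM in siKDM5C libraries and 0.278 FPKM in control libraries. LAMB3 per LAMA3 was 12.2 ± 0.777 in siSIRT6 libraries, 40.3 ± 6 in siKDM5C libraries and 33.3 ± 1.4 in control libraries (ratio of FPKM, SD, n = 3 each). LAMC1, the common gamma chain, had 65.2, 65.0 and 63.8 FPKM in siSIRT6 libraries, 56.1, 61.5 and 56.7 FPKM in siKDM5C libraries, and 46.6, 46.6 and 41.3 FPKM in control libraries. It was higher than control after siSIRT6 (0.52 ± 0.06, adjusted p = 0.000201) and after siKDM5C (0.37 ± 0.06, adjusted p = 0.00133). The difference of LAMC1 between the knockdowns, 0.15 ± 0.06 (adjusted p = 0.0817), passed the threshold without control replicate 3 (0.0439) or siKDM5C replicate 2 (0.0357).

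LAMB2, a beta chain of mature basement membranes, had 16.3, 15.0 and 15.2 FPKM in siSIRT6 libraries, 21.5, 20.2 and 25.1 FPKM in siKDM5C libraries, and 14.7, 15.4 and 15.0 FPKM in control libraries. It was higher after siKDM5C than in control libraries (0.53 ± 0.08, adjusted p = 0.000557) and than after siSIRT6 (-0.49 ± 0.08 for siSIRT6 minus siKDM5C, adjusted p = 0.00138). LAMB1, the common beta chain, averaged 27.1 ± 0.363 FPKM in siSIRT6 libraries, 28.4 ± 0.962 FPKM in siKDM5C libraries and 25.6 ± 0.911 FPKM in control libraries. Its call after siKDM5C (0.15 ± 0.05, adjusted p = 0.0288) was lost when control replicate 1 or 3, any siSIRT6 library, or siKDM5C replicate 2 or 3 was left out (adjusted p from 0.0508 to 0.087). Over all 12 laminin genes the summed level was 333 to 335 FPKM in siSIRT6 libraries, 290 to 315 FPKM in siKDM5C libraries and 273 to 295 FPKM in control libraries.

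**Figure D5:**
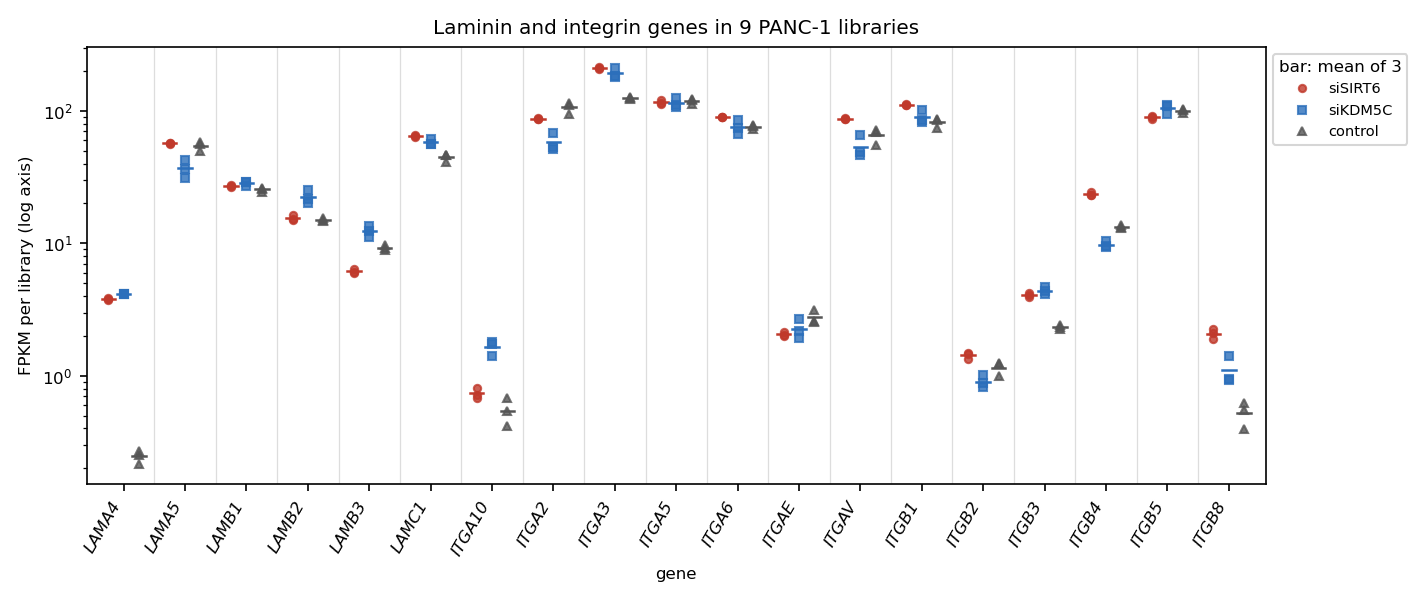
FPKM of each library on a log axis (vertical) for 6 tested laminin genes and 13 tested integrin genes (horizontal), with siSIRT6 as red circles, siKDM5C as blue squares and control as grey triangles, and a bar at the mean of 3 libraries. LAMA4 lies between 0.215 and 0.271 FPKM in control libraries and between 3.7 and 4.16 FPKM in the knockdowns, and ITGA5 overlaps in all groups.

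Among the 7 tested integrin alpha chains, 3 were higher and 1 was lower after siSIRT6, and 2 were higher and 1 was lower after siKDM5C. That is 42.9% higher and 14.3% lower after siSIRT6, against 23.9% and 26.9% of all tested genes, and 28.6% and 14.3% after siKDM5C, where the share of higher genes is near the 25.6% of all tested genes. ITGA10 reached the test through siKDM5C libraries alone, so these shares are descriptive. ITGA3, which pairs with ITGB1 as a laminin receptor, had 211, 207 and 215 FPKM in siSIRT6 libraries, 185, 180 and 211 FPKM in siKDM5C libraries, and 127, 125 and 124 FPKM in control libraries. Both knockdowns stood clear of control, with ITGA3 1.68-fold higher after siSIRT6 (0.75 ± 0.06, adjusted p = 3.13e-05) and 1.53-fold higher after siKDM5C (0.61 ± 0.06, adjusted p = 9.57e-05). Between the knockdowns the difference was 0.14 ± 0.06 (adjusted p = 0.116), and without siKDM5C replicate 3 it passed the threshold (0.00693). ITGA2, the collagen-binding partner of ITGB1, had 88.0, 87.1 and 87.0 FPKM in siSIRT6 libraries, 53.4, 68.5 and 51.7 FPKM in siKDM5C libraries, and 111, 114 and 94.6 FPKM in control libraries. It was lower after siKDM5C (-0.87 ± 0.11, adjusted p = 0.000277). After siSIRT6 its range lay below control without overlap, and the difference of -0.27 ± 0.11 had an adjusted p of 0.0666, which was 0.0343 without control replicate 3 and 0.012 without siKDM5C replicate 2. ITGA3 per ITGA2 was 2.42 ± 0.046 in siSIRT6 libraries, 3.39 ± 0.732 in siKDM5C libraries and 1.19 ± 0.113 in control libraries (ratio of FPKM, SD, n = 3 each).

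ITGAV, the alpha chain of receptors for vitronectin and latent TGF-beta, had 88.2, 86.2 and 86.4 FPKM in siSIRT6 libraries, 48.6, 65.8 and 46.3 FPKM in siKDM5C libraries, and 69.6, 71.9 and 55.2 FPKM in control libraries. It was higher after siSIRT6 than after siKDM5C (0.71 ± 0.14, adjusted p = 0.00443). Its call against control (0.41 ± 0.14, adjusted p = 0.0367) was lost without control replicate 1 or 3 or any siSIRT6 library (adjusted p from 0.0533 to 0.112), and a lower call after siKDM5C (-0.29 ± 0.14, adjusted p = 0.11) appeared without control replicate 3 (0.038) or siKDM5C replicate 2 (0.00938). ITGA6, the laminin-binding partner of ITGB4, averaged 89.9 ± 0.254 FPKM in siSIRT6 libraries, 75.7 ± 9.27 FPKM in siKDM5C libraries and 76.2 ± 3.28 FPKM in control libraries. Its calls after siSIRT6, at adjusted p of 0.0407 against control and 0.0392 against siKDM5C, were easily lost. The call against control was lost without any siSIRT6 or control library or siKDM5C replicate 1 (adjusted p from 0.0525 to 0.114), and the call against siKDM5C without any siSIRT6 library, control replicate 1 or 2, or siKDM5C replicate 1 or 3 (adjusted p from 0.0553 to 0.0991). ITGA5, the fibronectin receptor chain, averaged 116 ± 3.21 FPKM in siSIRT6 libraries, 114 ± 10 FPKM in siKDM5C libraries and 119 ± 6.01 FPKM in control libraries, and overlapped in every pair of groups.

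ITGA10 and ITGAE were far lower in level. ITGA10, a collagen receptor chain known from cartilage, averaged 0.738 ± 0.0688 FPKM in siSIRT6 libraries, 1.65 ± 0.203 FPKM in siKDM5C libraries and 0.543 ± 0.132 FPKM in control libraries. It was higher after siKDM5C (0.78 ± 0.09, adjusted p = 0.00019) and lower in siSIRT6 than in siKDM5C libraries (-0.61 ± 0.09, adjusted p = 0.00121). ITGA10 reached the test through siKDM5C libraries alone, so both calls are descriptive. ITGAE, which pairs with ITGB7 and binds E-cadherin, averaged 2.06 ± 0.0846 FPKM in siSIRT6 libraries, 2.25 ± 0.371 FPKM in siKDM5C libraries and 2.76 ± 0.311 FPKM in control libraries. Its lower call after siSIRT6 (-0.3 ± 0.09, adjusted p = 0.0277) was lost without control replicate 3 or any siSIRT6 library (adjusted p from 0.0517 to 0.0898), and after siKDM5C (-0.21 ± 0.09, adjusted p = 0.0881) a call appeared without siKDM5C replicate 1 (0.0224).

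Of the 6 tested beta chains, 4 were higher after siSIRT6 and 0 lower, or 66.7% and 0%, against 23.9% and 26.9% of all tested genes. After siKDM5C, 2 were higher and 1 was lower, or 33.3% and 16.7%, against 25.6% and 25.9%. ITGB8 reached the test through knockdown libraries alone, so these shares are descriptive. ITGB4, whose long tail anchors hemidesmosomes, had 24.6, 23.2 and 23.2 FPKM in siSIRT6 libraries, 9.6, 9.3 and 10.4 FPKM in siKDM5C libraries, and 13.8, 13.1 and 13.2 FPKM in control libraries. The groups did not overlap, and ITGB4 was 1.77-fold higher after siSIRT6 (0.78 ± 0.05, adjusted p = 9.63e-06) and 0.729 times control after siKDM5C (-0.42 ± 0.05, adjusted p = 0.000289). The siSIRT6 level was 2.42-fold that of siKDM5C (1.2 ± 0.05, adjusted p = 2.49e-06). ITGA6 per ITGB4 was 3.8 ± 0.134 in siSIRT6 libraries, 7.8 ± 1.37 in siKDM5C libraries and 5.7 ± 0.259 in control libraries. ITGB1, the partner of most alpha chains here, had 111, 112 and 111 FPKM in siSIRT6 libraries, 85.8, 101 and 82.4 FPKM in siKDM5C libraries, and 85.3, 86.8 and 74.5 FPKM in control libraries. ITGB1 was higher after siSIRT6 than in control libraries (0.43 ± 0.09, adjusted p = 0.0031). Its difference between siKDM5C and control libraries was 0.12 ± 0.09 (adjusted p = 0.268), and 0.216 (adjusted p = 0.00249) after correction for GC content and length. The call for siSIRT6 against siKDM5C (0.31 ± 0.09, adjusted p = 0.0193) was lost without any siSIRT6 library or without siKDM5C replicate 1 or 3 (adjusted p from 0.0536 to 0.06).

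ITGB8, which with ITGAV frees latent TGF-beta, had 2.11, 2.26 and 1.88 FPKM in siSIRT6 libraries, 0.936, 1.41 and 0.947 FPKM in siKDM5C libraries, and 0.547, 0.623 and 0.399 FPKM in control libraries. It was 3.98-fold higher after siSIRT6 (1.02 ± 0.11, adjusted p = 0.000104) and 2.1-fold higher after siKDM5C (0.46 ± 0.11, adjusted p = 0.00741), with no overlap between groups. ITGB3, the other classical partner of ITGAV, averaged 4.08 ± 0.117 FPKM in siSIRT6 libraries, 4.39 ± 0.237 FPKM in siKDM5C libraries and 2.34 ± 0.088 FPKM in control libraries. Its ratios to control were 1.74 and 1.88. A coding gene with no symbol, ENSG00000259753, overlaps ITGB3 on the same strand and averaged 4.24 FPKM in siSIRT6 libraries, 4.77 FPKM in siKDM5C libraries and 2.78 FPKM in control libraries, so their reads cannot be told apart. ITGB5, a further partner of ITGAV, averaged 89.4 ± 2.64 FPKM in siSIRT6 libraries, 104 ± 8.53 FPKM in siKDM5C libraries and 101 ± 3.76 FPKM in control libraries. ITGB5 missed the threshold after siSIRT6 (-0.17 ± 0.07, adjusted p = 0.064, and 0.0145 without siKDM5C replicate 2), and its lower call against siKDM5C (adjusted p = 0.0297) was lost without any siSIRT6 library or without siKDM5C replicate 1 or 3 (adjusted p from 0.0568 to 0.102). ITGB2, the leukocyte beta chain, averaged 1.43 ± 0.078 FPKM in siSIRT6 libraries, 0.903 ± 0.1 FPKM in siKDM5C libraries and 1.15 ± 0.136 FPKM in control libraries, with a call between the knockdowns (0.35 ± 0.08, adjusted p = 0.00696) and, without control replicate 3, a lower call after siKDM5C (0.0471).

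Levels of some members depend on the gene length behind the FPKM, which was taken from the files' own steps. That length was the union of annotated exons for 24 of the 85 members. Ratios of FPKM between groups are within a gene and do not depend on it, while the 1 FPKM minimum for testing, the differences of log2(FPKM + 1), orders of level and ratios between genes do.

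The 47 members that were not tested had between 1 and 2058 reads over all 9 libraries, with at most 10 reads for 10 of them, 11 to 99 for 18, and at least 100 for 19. Those with at most 10 reads were COL1A2, COL6A5, COL8A1, COL9A1, COL14A1, COL19A1, COL23A1, COL28A1, ITGA8 and LAMB4. Those with at least 100 reads were the collagens COL4A6, COL6A3, COL9A2, COL12A1, COL17A1, COL21A1, COL22A1 and COL26A1, the laminins LAMA1, LAMA2, LAMA3 and LAMC3, the thrombospondin THBS2 and the integrins ITGA1, ITGA4, ITGA7, ITGAM, ITGAX and ITGB7. ITGA1, the collagen receptor chain next to ITGA2 on chromosome 5, averaged 0.335 FPKM in siSIRT6 libraries, 0.348 FPKM in siKDM5C libraries and 0.328 FPKM in control libraries. Some of the better covered genes were unequal between groups. COL6A3, the third chain of the beaded filament, had 0.18, 0.173 and 0.206 FPKM in siSIRT6 libraries, 0.134, 0.121 and 0.142 FPKM in siKDM5C libraries, and 0.0485, 0.0439 and 0.0349 FPKM in control libraries. COL6A1 per COL6A3 was 18.7 ± 1.32 in siSIRT6 libraries, 21.1 ± 1.08 in siKDM5C libraries and 67.2 ± 12.8 in control libraries. COL12A1, which coats collagen fibrils, had 0.935, 0.865 and 0.792 FPKM in siSIRT6 libraries, 0.297, 0.358 and 0.289 FPKM in siKDM5C libraries, and 0.641, 0.62 and 0.545 FPKM in control libraries, with no overlap. ITGAX, a leukocyte integrin chain, had 11 reads in siSIRT6 libraries, 32 in siKDM5C libraries and 107 in control libraries. In a fit of log2 CPM of the recovered reads, COL6A3 was higher in siSIRT6 libraries (1.68 ± 0.14, adjusted p = 1.16e-06) and in siKDM5C libraries (1.25 ± 0.14, adjusted p = 1.39e-05). In the same fit COL12A1 was higher after siSIRT6 (0.5 ± 0.11, adjusted p = 0.00249) and lower after siKDM5C (-0.88 ± 0.11, adjusted p = 3.56e-05), and ITGAX was lower in both (-1.88 ± 0.19, adjusted p = 4.71e-06, and -1.22 ± 0.19, adjusted p = 0.000161). LAMA3 was higher after siSIRT6 there (0.8 ± 0.11, adjusted p = 8.1e-05). A gene entered that fit at 1 CPM in at least 3 libraries, which can be met through the groups where it is high. ITGAX, with 11 reads in the siSIRT6 libraries together, could not reach 1 CPM in them. The calls from that fit are therefore descriptive.

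Other genes of the matrix and of adhesion were read from lists of related genes. Among 11 tested matrix proteins that are not members, 8 were higher and 2 lower after siSIRT6, and 5 were higher and 2 lower after siKDM5C. That is 72.7% and 18.2% after siSIRT6, against 23.9% and 26.9% of all tested genes, and 45.5% and 18.2% after siKDM5C, against 25.6% and 25.9%. The matrix genes named below do not include those called lower than control. HSPG2, the basement membrane proteoglycan perlecan, averaged 50.9 ± 1.05 FPKM in siSIRT6 libraries, 52.3 ± 5.22 FPKM in siKDM5C libraries and 23.2 ± 0.99 FPKM in control libraries. TNC, an adhesion-modulating matrix protein, averaged 3.36 ± 0.122 FPKM in siSIRT6 libraries, 2.55 ± 0.201 FPKM in siKDM5C libraries and 1.03 ± 0.0503 FPKM in control libraries. Both passed the threshold in both knockdowns. SPARC, a collagen-binding matrix protein, was called after siSIRT6 (0.61, adjusted p = 5.51e-05) and not after siKDM5C (0.04, adjusted p = 0.596), and the knockdowns differed (0.58, adjusted p = 0.000133). FN1, fibronectin, was not tested and averaged 0.421 FPKM in siSIRT6 libraries, 0.233 FPKM in siKDM5C libraries and 0.199 FPKM in control libraries.

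Among 25 tested genes that modify, fold or cross-link collagen, 9 were higher and 4 lower after siSIRT6, and 14 were higher and 5 lower after siKDM5C. The shares were 36% higher and 16% lower after siSIRT6, against 23.9% and 26.9% of all tested genes, and 56% and 20% after siKDM5C, against 25.6% and 25.9%. TGM2, a cross-linking transglutaminase, averaged 88.7 ± 2.44 FPKM in siSIRT6 libraries, 85.6 ± 6.23 FPKM in siKDM5C libraries and 34.8 ± 0.0968 FPKM in control libraries. LOXL4, a lysyl oxidase, averaged 3.12 ± 0.177 FPKM in siSIRT6 libraries, 1.7 ± 0.234 FPKM in siKDM5C libraries and 0.632 ± 0.077 FPKM in control libraries, and both genes rose in both knockdowns. P3H2, a prolyl 3-hydroxylase, was called after siSIRT6 (0.66, adjusted p = 1.3e-05) and not after siKDM5C (0.05, adjusted p = 0.408). P4HB, the disulfide isomerase that is a subunit of prolyl 4-hydroxylase, and P3H1, a prolyl 3-hydroxylase, were higher in both knockdowns and lower in siSIRT6 than in siKDM5C libraries (-0.48, adjusted p = 0.00047, and -0.55, adjusted p = 0.000171).

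Among 10 tested receptors for matrix that are not integrins, 4 were higher and 2 lower after siSIRT6, and 5 were higher and 3 lower after siKDM5C. The lower genes, 20% after siSIRT6 and 30% after siKDM5C, were close to the 26.9% and 25.9% of all tested genes, and the higher genes were 40% and 50%, against 23.9% and 25.6%. SDC1, a syndecan of epithelia, averaged 12.6 ± 0.427 FPKM in siSIRT6 libraries, 37.7 ± 2.67 FPKM in siKDM5C libraries and 18.4 ± 1.73 FPKM in control libraries, and passed the threshold in opposite directions. CD44, the hyaluronan receptor, averaged 174 ± 1.55 FPKM in siSIRT6 libraries, 114 ± 6.87 FPKM in siKDM5C libraries and 96.9 ± 4.76 FPKM in control libraries. BCAM, a receptor for laminins with the LAMA5 chain, averaged 3.61 ± 0.0632 FPKM in siSIRT6 libraries, 1.99 ± 0.227 FPKM in siKDM5C libraries and 4.6 ± 0.116 FPKM in control libraries, and fell in both knockdowns. Among 17 tested adaptors of integrin tails, 9 were higher and 5 lower after siSIRT6, and 7 were higher and 4 lower after siKDM5C. Again the lower genes, at 29.4% and 23.5%, were close to the 26.9% and 25.9% of all tested genes, and the higher genes were 52.9% and 41.2%, against 23.9% and 25.6%. TNS3, a tensin, averaged 33.8 ± 0.691 FPKM in siSIRT6 libraries, 22.2 ± 1.46 FPKM in siKDM5C libraries and 16.3 ± 0.498 FPKM in control libraries, and ILK, the integrin-linked pseudokinase, averaged 77.9 ± 2.13 FPKM in siSIRT6 libraries, 96.3 ± 7.54 FPKM in siKDM5C libraries and 60.6 ± 0.343 FPKM in control libraries. Both were higher in both knockdowns, with TNS3 higher and ILK lower in siSIRT6 than in siKDM5C libraries.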

How the data were processed

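Values were measured by RNA sequencing in 9 PANC-1 libraries, 3 per group. Per the submitters' processing notes, Trimmomatic, HISAT2, Cufflinks, HTSeq and the hg38 build were used, with no versions or roles. The deposited files hold FPKM for 36753 genes, made by the authors. No source used here gives the annotation or the counting strand. The unit was read from the values: whole reads were recovered for 100% of genes (tolerance 0.01 of a read). With 0 reads, a gene of 1 kilobase could hold up to 0.1115 to 0.1648 FPKM (3 reads, counting error only). Coordinates are from GENCODE release 29 and sequences from RefSeq (GRCh38.p14). A table of gene names gave the symbols.

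Each gene that reached 1 FPKM in 3 or more libraries was tested with limma 3.58.1 in R 4.3.3, with a trend, on log2(FPKM + 1), in 1 fit of 9 libraries, two-sided, with Benjamini-Hochberg adjustment and a threshold of 0.05. Members, role groups, related lists and the rules were chosen with earlier results of these data known. The members and related genes named were those with the smallest adjusted p per role group and comparison (up to 4), those at 20 FPKM or more, those past the threshold in opposite directions, those that differed between the knockdowns by at least 1 on the log2 scale, and up to 3 per related list and comparison. COL27A1, COL6A2, FN1 and the members that were not tested fall outside that rule and were named after their values were seen. The related genes CCN1, CCN2, FBLN1, P3H3, SDC3, SDC4, DAG1, PTK2, TLN1, PARVA and PARVB met the rule and are not described. Counts and sums include 1 tested member and 1 marker gene that are not reported here. Alternatives changed the filter, pseudocount, scaling, libraries in the fit, a replicate block, a GC and length correction, and the unit (log2 CPM of recovered reads).

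All pairs of libraries within a group differed by more than sampling noise, and the spread was unequal. The mean chi-square per gene of library pairs was 2.021 to 3.241 in siSIRT6, 12.853 to 18.418 in siKDM5C and 2.61 to 12.139 in control. The fit pooled the spread of all groups, so p-values for siSIRT6 against control also rest on the siKDM5C libraries. Across groups, deviations from the group mean correlated at -0.229 to 0.252 between same-numbered libraries. Between other libraries of different groups the range was -0.353 to 0.426. Same-numbered libraries thus did not stand apart, and replicate numbers were not used to pair samples.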

Additional observations from a re-analysis of the deposited data

How the results depend on the processing

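Of 76 calls of the members reported by name over the 3 comparisons, 64 kept their direction and their side of the threshold under each of 17 alternatives in which the member was tested, and the 12 lost in some had differences between 0.15 and 0.41 on the log2 scale. A further 14 that were not called passed the threshold under some alternative. At a minimum of 5 FPKM, which leaves 20 members, the higher members were 13 after siSIRT6, 9 after siKDM5C and 12 in siSIRT6 against siKDM5C, and the lower members after siSIRT6 were 1 and in siSIRT6 against siKDM5C 4. The members lower after siSIRT6 numbered 5 with no filter, with the compared groups alone and with a replicate block, and 6 with log2 CPM and after correction for GC content and length. Same-numbered libraries did not pair, and with the block the counts were otherwise 23 higher after siSIRT6, 17 higher and 6 lower after siKDM5C, and 21 higher and 7 lower in siSIRT6 against siKDM5C. Leaving out each library in turn gave 20 to 24 higher and 2 to 5 lower members after siSIRT6, 15 to 17 higher and 5 to 7 lower after siKDM5C, and 16 to 22 higher and 4 to 7 lower in siSIRT6 against siKDM5C. The lowest count of lower members in siSIRT6 against siKDM5C, 4, came without siKDM5C replicate 1 or 3. There COL13A1 and ITGB5 lost their calls, while ITGA10 fell under the testing minimum and was not tested. COL11A1 was likewise not tested when any siSIRT6 library was left out.

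Small differences that were not called changed sign in 18 settings of 9 results, none past the threshold. After siSIRT6, the GC and length correction gave -0.0799 for COL16A1, -0.02 for LAMA5 and -0.0272 for LAMB2, and leaving out libraries gave -0.0791 to 0.0507 for COL16A1, -0.00459 to 0.101 for LAMA5 and -0.0826 to 0.00988 for COL6A2. After siKDM5C, that correction gave -0.0336 for ITGB5, median-of-ratios scaling gave 0.00569 for COL6A1, and leaving out libraries gave -0.0497 to 0.0229 for COL6A1 and -0.106 to 0.0669 for ITGA6. In siSIRT6 against siKDM5C, leaving out libraries gave -0.0244 to 0.0931 for ITGA5 and -0.154 to 0.00514 for ITGAE. The causes were not tested. Depth limits those members under 1 FPKM that had few reads, where a few reads set a value. It does not describe COL12A1, ITGA1 and LAMA3, which were under 1 FPKM with 2058, 1148 and 978 reads over all 9 libraries.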
